A study of Mus musculus with 12 samples.

Results

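The GIMAP genes encode GTPases of immunity-associated proteins, a vertebrate family of GTP-binding proteins best known from lymphocytes. Some of them are anchored to intracellular membranes. Some members act as GTP-dependent scaffolds that assemble on membranes, and others hydrolyse GTP. Loss of single members in mice or rats impairs the survival of T cells and B cells, and several members have been reported to bind regulators of apoptosis or of autophagy. In the mouse the family lies as 1 cluster on chromosome 6. The 8 members described here are Gimap1, Gimap3, Gimap4, Gimap5, Gimap6, Gimap7, Gimap8 and Gimap9. They were chosen by the family name, among probe sets to which the array annotation gives a single symbol. This gave 8 of the 18194 genes with such a probe set, and 11 of the 45101 probe sets on the array, 1 each for Gimap1, Gimap3, Gimap5, Gimap8 and Gimap9 and 2 each for Gimap4, Gimap6 and Gimap7. The family was selected on earlier results of these same arrays, so that the differences between groups given for its members are a description and carry no p-value.

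The data were 12 Affymetrix arrays of RNA from mouse blood cells, in 4 groups of 3. The groups, by array title, were Stat5a and Stat5b knockouts with CMP, knockouts without CMP, controls with CMP and controls without CMP. The labels do not state what CMP is, which blood cells were taken, how the genes were deleted or whether the arrays of a group came from separate mice. CMP is named as an agent in the treatment notes but forms part of the name of all arrays in 2 of the naming sets, so that "with CMP" means here only the plus sign of the title. Titles came in 3 forms, called sets A, B and C, and each form covered every group once. Because separate mice are not stated, the spread between arrays may be technical.

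The genotype labels held on the arrays. Stat5a, one of the deleted transcription factors of cytokine signalling, had signals of 28.9 to 90.1 in the knockouts against 660 to 1436 in the controls. Stat5b had 7.28 to 82.8 against 1036 to 2177. The knockout array without CMP of set B is called a control in its treatment note and was grouped by its title. Its Stat5a and Stat5b signals of 50.1 and 32.3 were at the level of the other knockouts and far below every control. Values with this array counted as a control are given only to show the dependence on the label. Set B stood apart from the other sets. Its beta-actin 3′ to 5′ signal ratio, a measure of RNA integrity or labelling length, was 4.30 to 5.78 on the log2 scale, against 0.25 to 2.14 in sets A and C. Within every set the ratio was higher with CMP than without, in 6 of 6 pairs. Values without set B are therefore given beside the main differences. Pan-blood markers such as Ptprc, the common leukocyte antigen, were all above background, with 0 of 12 near it. The CD3 genes of the T cell receptor complex lay below background, as given with the marker lists.

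In the GRCm38.p6 annotation the 8 genes lie together on chromosome 6, with 2 further entries, the pseudogene Gm44262 and the lncRNA Gm46958, between Gimap8 and Gimap9. Gimap8 lies at 48647186 to 48660875, Gimap9 at 48676121 to 48679116, Gimap4 at 48684578 to 48692062 and Gimap6 at 48701583 to 48708244. They are followed by Gimap7 at 48718621 to 48724636, Gimap1 at 48739047 to 48743795, Gimap5 at 48746197 to 48754200 and Gimap3 at 48764464 to 48770851. Gimap6 and Gimap3 are read from the minus strand and the other members from the plus strand. The annotation also lists Gimap5 as an older name of Gimap3, so that both were matched by gene number. The probe sequences were not used here, and cross-hybridisation between these related genes was not tested.

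RefSeq promoter windows, from 250 bases before to 50 bases after a transcription start, were found for all 8 genes, with 2 windows for Gimap8. STAT proteins bind palindromes of the form TTCNNNGAA, where N is any base, and this motif reads the same on both strands. It was found in 4 of the 9 windows and in 4 of the 8 genes, namely Gimap8, Gimap6, Gimap7 and Gimap3. Among all RefSeq windows of the same length, 8.30% of 32851 held it, and 9.55% of 27025 genes had such a window. A match describes the letters and does not show a binding site. The windows of the 5 members that passed the level filter are shown, in lower case with the motif in capitals where it occurred. For Gimap8 the window with the motif is printed, at base 204 counted from its 5′ end, and its other window held none. The Gimap6 window holds the motif at base 17, and those of Gimap1, Gimap5 and Gimap9 hold none. The Gimap8 window is chr6:48647111-48647410 on the plus strand, that of Gimap6 is chr6:48708195-48708494 on the minus strand, that of Gimap1 is chr6:48738797-48739096 on the plus strand, that of Gimap5 is chr6:48745947-48746246 on the plus strand, and that of Gimap9 is chr6:48675885-48676184 on the plus strand.
Gimap8: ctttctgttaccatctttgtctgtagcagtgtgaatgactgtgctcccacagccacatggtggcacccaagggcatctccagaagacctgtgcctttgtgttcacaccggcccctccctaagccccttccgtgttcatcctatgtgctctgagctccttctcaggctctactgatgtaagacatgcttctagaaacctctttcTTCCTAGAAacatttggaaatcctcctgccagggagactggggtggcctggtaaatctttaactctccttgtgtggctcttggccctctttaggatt
Gimap6: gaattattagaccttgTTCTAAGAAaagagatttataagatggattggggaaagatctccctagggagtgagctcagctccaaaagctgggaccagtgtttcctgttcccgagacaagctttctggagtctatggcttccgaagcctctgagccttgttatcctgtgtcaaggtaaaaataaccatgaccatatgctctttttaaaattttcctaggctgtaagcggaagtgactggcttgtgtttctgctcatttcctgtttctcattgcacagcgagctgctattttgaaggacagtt
Gimap1: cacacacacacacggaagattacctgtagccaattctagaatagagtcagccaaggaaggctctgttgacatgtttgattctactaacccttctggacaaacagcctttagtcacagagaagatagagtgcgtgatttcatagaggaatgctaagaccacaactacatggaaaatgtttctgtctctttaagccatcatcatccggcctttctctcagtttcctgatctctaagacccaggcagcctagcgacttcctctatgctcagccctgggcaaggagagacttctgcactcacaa
Gimap5: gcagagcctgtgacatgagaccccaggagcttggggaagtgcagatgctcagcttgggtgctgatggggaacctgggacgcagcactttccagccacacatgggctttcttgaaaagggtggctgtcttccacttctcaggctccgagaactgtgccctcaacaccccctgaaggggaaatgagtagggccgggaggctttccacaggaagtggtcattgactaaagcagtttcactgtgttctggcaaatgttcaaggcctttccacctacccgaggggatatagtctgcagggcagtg
Gimap9: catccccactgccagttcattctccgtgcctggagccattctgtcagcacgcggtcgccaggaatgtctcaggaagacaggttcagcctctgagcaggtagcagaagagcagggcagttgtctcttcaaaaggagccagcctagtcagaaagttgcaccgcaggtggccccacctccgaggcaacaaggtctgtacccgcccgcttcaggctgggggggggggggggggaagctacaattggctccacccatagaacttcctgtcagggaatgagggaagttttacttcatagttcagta

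The deposited MAS5 signals are linear intensities, scaled so that the mean of each array without its highest and lowest 2% was 500. The background was read from 44 probe sets of olfactory receptors, genes not used by blood cells. Their 95th percentile was 46.3 to 114 across arrays, and the median signal of all probe sets was 59.7 to 114. A probe set was taken as above background where it exceeded the olfactory percentile in all arrays of at least 1 group, and as near background where it stayed below it in at least 10 of 12 arrays. Gimap8 and the brighter Gimap6 probe set exceeded it in 12 of 12 arrays. Gimap1, Gimap5 and the second Gimap6 probe set did so in 11 arrays, and Gimap9 in 10. Both Gimap4 probe sets (0 and 1 of 12 arrays above) and the second Gimap7 probe set (1 of 12) were near background. The brighter Gimap7 probe set exceeded the percentile in 3 arrays and met neither definition. Gimap3 met the upper definition through the knockouts with CMP alone, 1 of which lay at 47.7 against a percentile of 46.3. It exceeded the percentile in 6 of 12 arrays. The closest case among the brighter genes was Gimap5, at 78.8 against 78.6 in the knockout array with CMP of set B. Genes were tested where their mean of log2(signal + 32) was at least 6.76. Gimap1, Gimap5, Gimap6, Gimap8 and Gimap9 passed, the lowest of them Gimap5 at 7.59, and Gimap3 (6.51), Gimap7 (6.43) and Gimap4 (6.23) did not. Levels of different probe sets are not compared, since each binds RNA with its own strength.

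**Figure D1:**
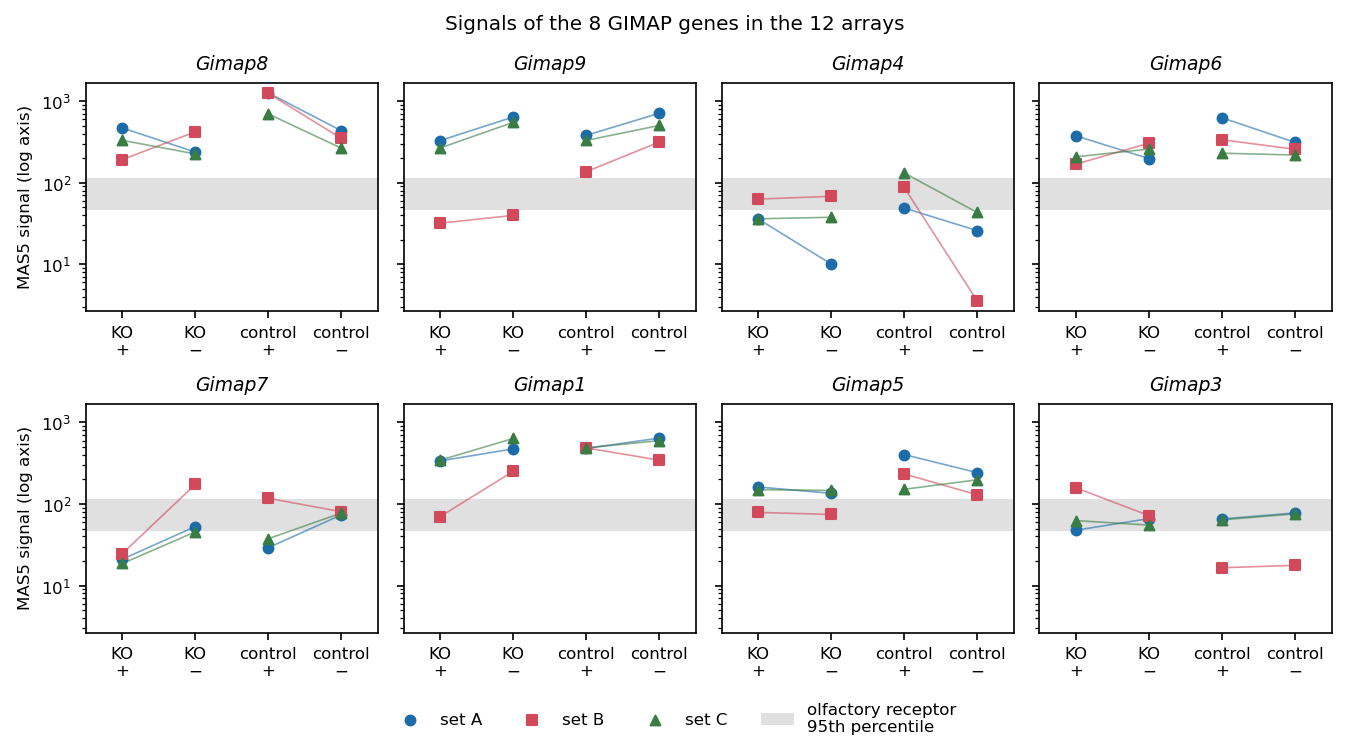
MAS5 signal (log axis) of the brightest probe set of each GIMAP gene in the 12 arrays, by group, with 1 symbol per naming set and lines joining the arrays of a genotype within a set. The grey band spans the olfactory receptor percentiles of the 12 arrays, 46.3 to 114. Gimap8 stood at 697 to 1264 in the controls with CMP, above its signals in the other 9 arrays. The share of genes with such a gap was not counted. Gimap4 lay almost wholly in or below the band.

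Gimap8 encodes the largest member, with several GTPase domains in a row, and is known from mature B cells in the mouse. Its probe set (1456061_at) gave signals of 470.0, 192 and 331 in the knockouts with CMP (sets A, B and C), 237, 421 and 226 in the knockouts without CMP, 1264, 1247 and 697 in the controls with CMP, and 434, 349.9 and 265 in the controls without CMP. The 3 controls with CMP were higher than all other arrays, and the other 3 groups overlapped each other. How many of the genes tested had a group apart from all other arrays was not counted. Group means were 331 ± 139, 295 ± 110, 1069 ± 323 and 349.6 ± 84.2 in that order (SD, n = 3 each). The order of levels was thus controls with CMP, controls without CMP, knockouts with CMP and knockouts without CMP, and neighbours among the last 3 differed by less than their SD.

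Gimap1 (probe set 1449988_at), which mice need to form mature T and B cells, had signals of 338, 70.1 and 345 in the knockouts with CMP, 474, 251 and 636 in the knockouts without CMP, 480.3, 487 and 488 in the controls with CMP, and 643, 345 and 598 in the controls without CMP. The 3 knockouts with CMP lay below all controls with CMP, and the array of set B was at background. Means were 251 ± 157, 454 ± 193, 485 ± 4.07 and 529 ± 161. From the highest group down, the order was controls without CMP, controls with CMP, knockouts without CMP and knockouts with CMP. The signals of each group overlapped those of the next in this order.

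Gimap9 (1437756_at), a member of which less is known, had signals of 329, 31.95 and 267 in the knockouts with CMP, 640.0, 39.8 and 551 in the knockouts without CMP, 382, 137 and 330.4 in the controls with CMP, and 711, 315 and 504 in the controls without CMP. In sets A and C the arrays without CMP were the higher ones in both genotypes, and in set B both knockout arrays fell below the olfactory percentile. Means were 209 ± 157, 410.1 ± 324, 283 ± 129 and 510.1 ± 198, and each group overlapped the next one in order of level.

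Gimap6 encodes a cytosolic member that binds a GABARAP family protein and takes part in autophagy. Its brighter probe set (1427891_at) gave 376, 169 and 208 in the knockouts with CMP, 198, 306 and 259 in the knockouts without CMP, 625, 337 and 230.3 in the controls with CMP, and 313, 257 and 219 in the controls without CMP. The highest signal was that of the control with CMP of set A, and all 4 groups overlapped. Means were 251 ± 110, 254 ± 54.3, 398 ± 204 and 263 ± 47.3. The second probe set (1456762_at) gave means of 185 ± 113, 291 ± 75.5, 308 ± 206 and 259 ± 108 in the same order of groups, which also overlapped.

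Gimap5 encodes a lysosomal membrane protein whose loss causes lymphopenia in rats and mice. Its signals (1444181_at) were 162, 78.8 and 149.9 in the knockouts with CMP, 135, 74.5 and 147 in the knockouts without CMP, 404, 234 and 151 in the controls with CMP, and 242, 129.7 and 198 in the controls without CMP. In each set the knockouts were the lower arrays at either CMP state, although in set C the pair with CMP was nearly equal. Means were 130.1 ± 44.8, 119 ± 38.8, 263 ± 129 and 190.1 ± 56.8.

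Gimap3 (1449220_at), a close relative of Gimap5, had signals of 47.7, 158 and 62.6 in the knockouts with CMP, 66.2, 72.1 and 55.2 in the knockouts without CMP, 65.6, 16.5 and 63.9 in the controls with CMP, and 77.6, 17.7 and 75.8 in the controls without CMP. The widest spread was within set B, where knockouts were high and controls low. In sets A and C the 8 signals lay between 47.7 and 77.6, close to the array medians. Gimap7, which in human is reported to stimulate GTP hydrolysis by a partner GIMAP, had signals at 1425084_at of 21.0, 24.6 and 18.6 in the knockouts with CMP, 53.0, 174 and 45.5 in the knockouts without CMP, 29.1, 118 and 37.6 in the controls with CMP, and 73.8, 80.4 and 77.6 in the controls without CMP. Its 3 arrays of knockouts with CMP were the lowest of all 12 and below the olfactory percentile. The share of genes with a group apart from all other arrays was not counted. Gimap4, which in rat and mouse affects the pace of T cell death, ranged from 3.56 to 132 at its brighter probe set (1424375_s_at) and from 2.34 to 68.9 at the other (1424374_at). Its single signal above the percentile was the 132 of the control with CMP of set C.

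With CMP, the knockouts were lower than the controls at 7 of 8 GIMAP genes, with a median of -0.66 over the 8 fitted log2 differences. Over the 10583 genes tested, the median was -0.04, with the 5th and 95th percentiles at -0.71 and 0.56. Gimap8 was at -1.63 ± 0.32 (SE of the fit over all 12 arrays with the set as a block), or 3.09-fold lower on the log2(signal + 32) scale. By set its differences were -1.37, -2.51 and -1.01 (A, B and C), and without set B the value was -1.19. Gimap1 was at -1.09 ± 0.33, with -0.47, -2.35 and -0.46 by set, and without set B at -0.47. Gimap5 was at -0.81 ± 0.29, with -1.17, -1.26 and -0.01 by set. Set B thus held the most negative difference of each of these genes, and in set C the Gimap5 signals were nearly equal.

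Smaller differences of the same sign were seen at Gimap9 (-0.62 ± 0.40) and Gimap6 (-0.56 ± 0.32, and -0.63 at its second probe set). Without set B these were -0.24 and -0.41. Gimap7 (-0.69 ± 0.32, and -0.34 at its second probe set) and Gimap4 (-0.62 ± 0.35) lay under the level filter. Their differences depend on the constant added before the logarithm. Gimap3 was the exception, at 0.55 ± 0.42 with -0.29, 1.97 and -0.02 by set, and without set B it was at -0.16. No GIMAP gene passed an adjusted p of 0.05 in this comparison, where 0.0189% of genes did, namely Stat5a and Stat5b (limma, Benjamini-Hochberg adjustment over all genes). An unadjusted p under 0.05 was reached by 3 of the 5 tested members and by 1038 genes, or 9.81%. All 5 tested members were lower in all 3 sets, as were 18.5% of the genes tested. Gimap1 and Gimap8 had groups that did not overlap, with the knockouts lower, as had 3.04% of genes. These shares stand beside members that earlier results had picked, and nothing is read from them. In all 24 other settings the 7 genes below 0 kept their sign. Some of these settings cannot move the difference, such as leaving out an array without CMP, dropping the set block or dropping the level filter. The same holds for counting the array with conflicting labels as a control. Those settings say nothing about its stability. In bulk RNA, fewer cells that express a gene and less RNA per cell cannot be told apart.

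Without CMP, the median over the 8 genes was -0.15, against -0.01 over all genes, and 0 of the 5 tested members passed, where 0.0189% of genes did (Stat5a and Stat5b). At an unadjusted p under 0.05 there were 0 members and 250 genes, or 2.36%. Gimap5 was at -0.56 ± 0.29 and was lower in the knockouts in all 3 sets, by -0.72, -0.60 and -0.37. Of the genes tested, 18.1% were lower in all 3 sets. Gimap8 was at -0.25 ± 0.32, with -0.79, 0.25 and -0.21 by set. It was at -0.50 without set B and at -0.62 with the array of conflicting labels counted as a control. Gimap9 was at -0.77 ± 0.40, almost all of it from set B (-0.14, -2.27 and 0.12). Without set B it was at -0.01, and at 0.05 with that array as a control.

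**Figure D2:**
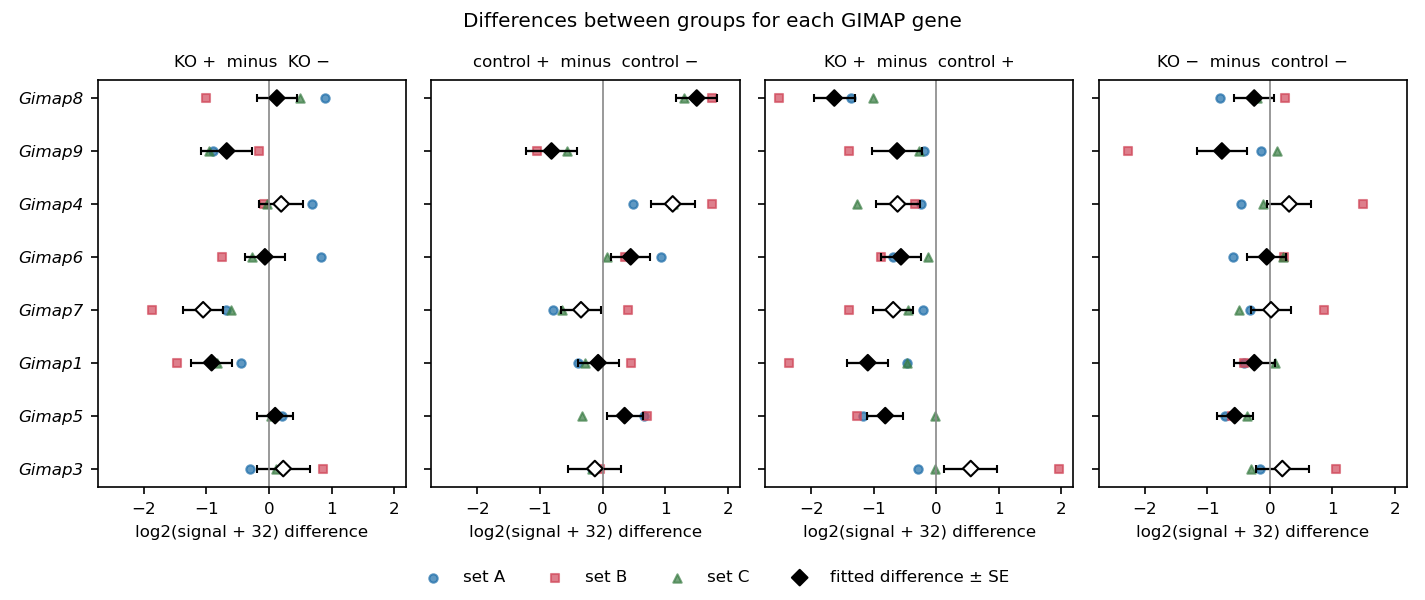
Difference in log2(signal + 32) for each GIMAP gene in 4 comparisons, by naming set (coloured symbols) and as fitted over all arrays (diamonds, with SE as bars, open for genes under the level filter). In the knockouts with CMP minus controls with CMP, the fitted values of 7 of 8 genes lay below 0, from -1.63 at Gimap8 to -0.56 at Gimap6, and Gimap3 lay at 0.55.

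CMP in the controls went with a higher Gimap8 and with little shared movement of the other members. Gimap8 rose by 1.505 ± 0.32, or 2.84-fold, with 1.48, 1.74 and 1.29 by set, and the groups did not overlap. It was the 1 called member of 5 tested, all 5 sharing the fit in which 10.6% of genes were called higher and 11.6% lower. Groups that did not overlap, with CMP the higher, were seen at Gimap8 among the tested members and at 12.6% of genes. At an unadjusted p under 0.05 there was 1 member and 3849 genes, or 36.4%. The call was lost without set C, at a value of 1.61 in a fit that called 5.4% of all genes. It was also lost when the beta-actin ratio entered the fit, at a value of 1.55, where 14.4% of genes were called. The controls with CMP are the same 3 arrays that stand in the comparison with the knockouts, so that the high Gimap8 signals of these arrays enter both differences.

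Of the other members, Gimap6 was at 0.45 ± 0.32 (0.14 at its second probe set), and at 0.02 with the beta-actin ratio in the fit. Gimap5 was at 0.35 ± 0.29. Gimap9 was at -0.82 ± 0.40, with lower signals with CMP in all 3 sets, as at 30.6% of the genes tested. It was at -0.07 with the beta-actin ratio in the fit. Gimap1 was at -0.07 ± 0.33, Gimap7 at -0.35 ± 0.32 (0.43 at its second probe set) and Gimap3 at -0.12 ± 0.42. Gimap4 was at 1.12 ± 0.35 and higher in all 3 sets, from signals near background. Of the genes tested, which did not include Gimap4, 27.1% were higher in all 3 sets. The size of the Gimap4 difference was 2.26 with a constant of 1 and 0.60 with a constant of 100. The median over the 8 genes was 0.14, against -0.02 over all genes.

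In the knockouts, Gimap8 had no consistent shift with CMP. Its fitted difference was 0.13 ± 0.32, with 0.90, -1.01 and 0.49 by set, and without set B it was 0.70. Gimap1 was at -0.92 ± 0.33 and lower with CMP in all 3 sets, by -0.45, -1.47 and -0.82. Of the genes tested, 29.1% were lower in all 3 sets. With the beta-actin ratio in the fit, Gimap1 was at -0.43. Gimap9 was at -0.68 ± 0.40 with -0.90, -0.17 and -0.96 by set, and at 0.14 with the beta-actin ratio in the fit. Gimap7, under the level filter, was at -1.05 ± 0.32 with groups that did not overlap and CMP the lower. Such groups were seen at 11.4% of the genes tested, which did not include Gimap7. The signals of this probe set were 18.6 to 24.6 with CMP, below the olfactory percentile. The second Gimap7 probe set was at 0.13 ± 0.32. Gimap6 differed between its probe sets, at -0.06 ± 0.32 and -0.70 ± 0.34, and Gimap5 was at 0.10 ± 0.29. Called members numbered 0 of 5, where 9.03% of genes were called higher and 9.72% lower. At an unadjusted p under 0.05 there was 1 member and 3590 genes, or 33.9%. Without set B, Gimap1, Gimap8 and Gimap9 were called, in a fit that called 25% of all genes against 18.8% with all sets.

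The interaction is the CMP difference in the knockouts minus that in the controls. At Gimap8 it was -1.38 ± 0.46, with -0.58, -2.76 and -0.80 by set, and without set B it was -0.69. At Gimap1 it was -0.85 ± 0.46, with -0.06, -1.93 and -0.55 by set, and -0.30 without set B. At Gimap9 it was 0.14 ± 0.57, but -0.23 without set B and -0.68 with the array of conflicting labels as a control. The CMP difference was called unlike between the genotypes at 0 members, and 0% of all genes were called (limma, adjusted p under 0.05). At an unadjusted p under 0.05 there was 1 member and 223 genes, or 2.11%. The beta-actin ratio of the knockouts with CMP minus that of the controls with CMP was -0.17, 0.71 and -0.39 on the log2 scale in sets A, B and C. For the interaction it was 0.286, 0.286 and -0.35. With the ratio in the fit, Gimap8 was at -1.63 for knockouts against controls with CMP and at -1.38 in the interaction.

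The members did not vary as 1 block across arrays. After the mean of each set was taken off, log2 values of Gimap8 correlated over the 12 arrays with those of Gimap6 (Pearson r = 0.79) and Gimap5 (0.76). Gimap1 correlated with Gimap7 (0.77) and Gimap9 (0.74). These were not separate sub-groups, as Gimap1 also correlated with Gimap5 (0.57), Gimap8 (0.45) and Gimap6 (0.43). Gimap7 and Gimap9 correlated at 0.40, and Gimap8 and Gimap9 at -0.02. Gimap3 ran opposite to Gimap1 (-0.76) and Gimap9 (-0.67). With the set means left in, Gimap1 correlated with Gimap7 at 0.20 and with Gimap9 at 0.83. Gimap3 was then at -0.47 with Gimap1 and at -0.23 with Gimap9, and Gimap8 at 0.77 with Gimap6 and 0.66 with Gimap5. Gimap3 and Gimap7 lay under the level filter. The 12 points share the 4 groups and the scaling of their arrays, and these values are descriptions. Among the 10578 other tested genes, the 5 most like Gimap8 by the same measure were Ankrd33b (0.95), Crtc3 (0.95), Rnf214 (0.94), Pwwp2b (0.94) and 2900026A02Rik (0.93). Crtc3 encodes a coactivator of CREB, and Ankrd33b and Rnf214 encode proteins with ankyrin repeats and a RING finger.

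As neighbours, 10 annotated genes were taken on each side of the cluster. Over both sides together only 10 had a probe set and 6 were tested, and the rest were not measured. With CMP, 0 of the 6 tested neighbours were called between knockouts and controls, where 0.0189% of all genes tested were. The differences of these neighbours ran from -0.34 at AI854703 to 0.35 at Zfp775. The single call among neighbours in any comparison was Repin1, a zinc finger gene. It fell by 0.70 ± 0.20 with CMP in the knockouts (limma adjusted p = 0.0315), where 9.72% of all genes tested were called lower. AI854703, the annotated neighbour next to Gimap8, was at -0.71 ± 0.31 with CMP in the controls (adjusted p = 0.121), where Gimap8 was higher.

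**Figure D3:**
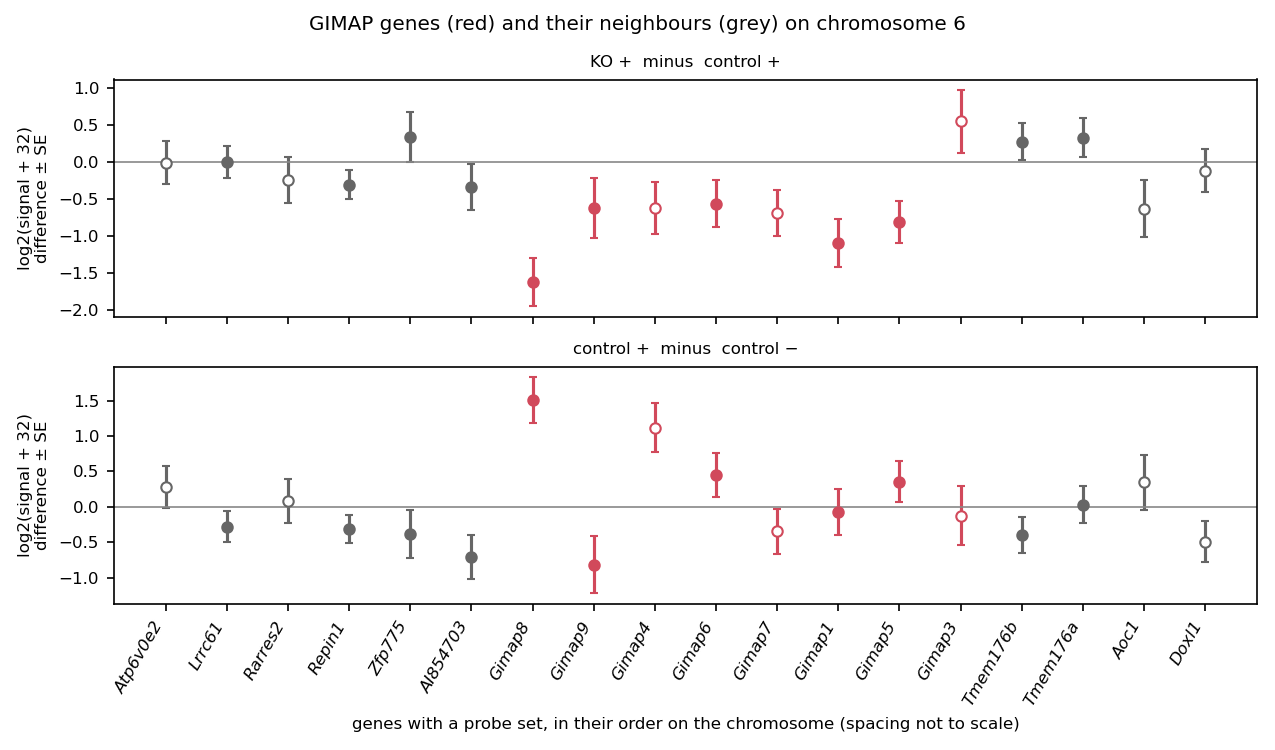
Fitted difference in log2(signal + 32) with SE for the GIMAP genes (red) and their measured neighbours (grey) in chromosomal order, not to scale, for knockouts with CMP minus controls with CMP (top) and controls with CMP minus controls without CMP (bottom). Open points are genes under the level filter. In the top panel the tested neighbours lay between -0.34 and 0.35, and the 5 tested GIMAP genes between -1.63 and -0.56.

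A list of 9 genes on the array held proteins reported to bind GIMAP members or to act with them, among them Bcl-2 family proteins and GABARAP proteins. All 9 were tested. With CMP, 3 of them were called higher and 1 lower in the controls, and 1 higher and 1 lower in the knockouts. Of all genes tested, 10.6% were called higher and 11.6% lower in the controls, and 9.03% and 9.72% in the knockouts. Bcl2, an inhibitor of apoptosis, fell in both, at -1.66 ± 0.29 in the knockouts (adjusted p = 0.00322) and -1.72 ± 0.29 in the controls (adjusted p = 0.00209). Bcl2l11, the pro-apoptotic Bim, rose by 1.86 ± 0.40 in the knockouts (adjusted p = 0.00925) and by 2.24 ± 0.40 in the controls (adjusted p = 0.00289). The others called in the controls were Ctnnb1, which encodes beta-catenin (0.63 ± 0.17, adjusted p = 0.0215), and the kinase gene Gsk3b (0.68 ± 0.19, adjusted p = 0.0253). Between knockouts and controls 0 of 9 were called, with or without CMP, where 0.0189% of all genes tested were called. The smallest p with CMP was that of Bcl2l1, which encodes Bcl-xL and is a known STAT5 target, at -0.64 ± 0.21 (adjusted p = 0.507). GABARAP genes did not pass in any comparison, with Gabarapl2, reported to bind Gimap6, at 0.42 ± 0.19 with CMP in the controls (adjusted p = 0.143).

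Septins are GTPases whose fold is related to that of the GIMAP proteins, and 9 of 12 on the array were tested. Septin11 rose with CMP in both genotypes, by 0.82 ± 0.15 in the knockouts and 0.84 ± 0.15 in the controls (adjusted p = 0.00458 and 0.00314). Septin9 fell in both, at -1.12 ± 0.32 in the knockouts and -1.001 ± 0.32 in the controls (adjusted p = 0.0303 and 0.0427). Septin6 also fell in both, at -0.81 ± 0.20 in the knockouts and -0.59 ± 0.20 in the controls (adjusted p = 0.016 and 0.0498). The other 6 did not pass. Of the interferon-inducible GTPases, 9 of 12 were tested and Ifi47 was the 1 called, falling by 1.04 ± 0.25 with CMP in the controls (adjusted p = 0.0125). Of all genes tested, 9.03% were called higher and 9.72% lower with CMP in the knockouts, and 10.6% and 11.6% in the controls. No septin or interferon-inducible GTPase was called between genotypes, where 0.0189% of all genes tested were called.

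STAT5 targets known from other cells gave 15 tested genes. With CMP, 3 were called higher and 1 lower in the knockouts, and 5 higher and 1 lower in the controls. Of all genes tested, 9.03% were called higher and 9.72% lower in the knockouts, and 10.6% and 11.6% in the controls. Lifr, a cytokine receptor gene, rose by 2.46 ± 0.37 in the knockouts and 1.93 ± 0.37 in the controls (adjusted p = 0.00129 and 0.00395). Between knockouts and controls with CMP none passed the test, where 0.0189% of all genes tested did. Cish, a cytokine signalling inhibitor, was at -1.67 ± 0.24 (adjusted p = 0.0521) and Socs3 at -1.96 ± 0.48 (adjusted p = 0.470). The median over the 15 tested targets was -0.51, and Bcl6 and Ccnd1 had higher signals in the knockouts in all 3 sets. The difference of Gimap8 in the same comparison was -1.63.

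Markers of lymphocytes were read beside the family. Of 18 T cell markers on the array, 11 were near background, and Cd3d, Cd3e, Cd3g, Cd2 and Cd4 exceeded the olfactory percentile in 0 of 12 arrays. Zap70 and Lat exceeded it in 12 arrays, Thy1 and Ubash3a in 11 and Cd8a in 10. The summed signal of the 18 genes was 1286 to 3077 in the knockouts with CMP, 2266 to 2394 in the knockouts without CMP, 2818 to 3857 in the controls with CMP and 2114 to 2362 in the controls without CMP. The sums with and without CMP did not overlap in the controls, where Gimap8 was also higher. The gene with the largest signal in that sum was Lat, a signalling adaptor found in T cells and also in other blood cells, at 1458, 1938 and 1643 in the controls with CMP against 784, 754 and 819 in the controls without CMP. Its fitted difference was 1.06 ± 0.38 (adjusted p = 0.0688). Without Lat, the sums of the list overlapped between the controls with and without CMP. They were then lower with CMP in sets A and C and higher in set B. In the controls the 1 called gene of the 6 tested T cell markers was Ubash3a, which fell with CMP, at -0.96 ± 0.28 (limma adjusted p = 0.0292). In the knockouts Ubash3a (-0.89 ± 0.28, adjusted p = 0.0443) and Thy1 (-0.92 ± 0.27, adjusted p = 0.0348) were called lower. Of all genes tested, 11.6% were called lower in the controls and 9.72% in the knockouts. Knockouts minus controls with CMP were at -0.96 for Lat, -0.95 for Thy1, -0.32 for Zap70, -0.24 for Ubash3a, -0.06 for Bcl11b and 0.10 for Cd8a, with 0 called. The part of such cells in the Gimap8 difference was not tested. Among B cell markers 7 of 15 were near background, among natural killer cell markers 5 of 13 and among early lymphoid markers 5 of 15. Il7r, Flt3, Dntt, Satb1, Notch1, Ikzf1 and Cd27 of the early lymphoid list exceeded the percentile in 12 of 12 arrays. So did Cd79b among the B cell markers and Nkg7 among the natural killer cell markers. Of 15 endothelial markers, 5 were near background, among them Cdh5, Cldn5 and Sox17 with 0 of 12 arrays above, while Tek, Eng, Esam, Vwf and Egfl7 exceeded the percentile in 12 of 12 arrays.

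Markers of other blood lineages gave 0 called genes between knockouts and controls with CMP, where 0.0189% of all genes tested were called. Some lists had medians away from 0. The median fitted difference was -0.86 over 11 erythroid genes, -0.70 over 16 neutrophil granule genes and -0.68 over 13 megakaryocyte genes. It was -0.51 over 9 endothelial genes, -0.29 over 18 stem and progenitor genes, -0.28 over 6 T cell genes and -0.12 over 12 pan-blood genes. It was 0.51 over 9 early lymphoid genes, 0.34 over 2 B cell genes, 0.25 over 13 monocyte and macrophage genes and 0.12 over 4 natural killer cell genes. The summed signal of the megakaryocyte list was 27588 to 42955 in the knockouts with CMP against 38712 to 67628 in the controls with CMP, and that of the erythroid list 7336 to 18482 against 15397 to 25142. The GIMAP median in the same comparison was -0.66, and the part of these cells in it was not tested. Between arrays with and without CMP, the erythroid list gave calls in both genotypes. Of all genes tested, 9.72% were called lower and 9.03% higher in the knockouts, and 11.6% and 10.6% in the controls. In the knockouts 7 of 11 erythroid genes were called lower and 1 higher, with a median of -1.20. In the controls 5 of 11 erythroid genes were called lower and 0 higher, with a median of -1.11. Car1, an erythroid carbonic anhydrase, fell most among those with the smallest p, at -3.74 ± 0.58 in the knockouts and -3.50 ± 0.58 in the controls (adjusted p = 0.00156 and 0.00189). The sums of the list were 7336 to 18482 with CMP and 20082 to 38291 without CMP in the knockouts, and 15397 to 25142 with CMP and 21627 to 63195 without CMP in the controls. Gimap9 was lower with CMP in the same comparisons and Gimap1 in the knockouts, and the part of erythroid cells in these differences was not tested.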

How the data were processed

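RNA of 12 mouse blood cell samples was measured on 1-colour arrays with 45101 probe sets. The authors deposited linear intensity signals, made with MAS5 per the submitters' processing notes, with no version or detection calls given in the sources used here. The deposited scaling was kept. Probe sets with 1 symbol numbered 34958, and 34754 of them matched the GRCm38.p6 annotation by gene number.

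The scale was log2(signal + 32), with the brightest single-symbol probe set of a gene. Genes with a mean below 6.76 were left out, which left 10583. One limma fit (limma 3.58.1, R 4.3.3, eBayes with trend) held the 4 groups and the naming set as a block, with two-sided tests, Benjamini-Hochberg adjustment over all genes tested and a threshold of 0.05. It had 6 residual degrees of freedom. The set was kept as a block because deviations from group means correlated at 0.41 to 0.77 within sets (18 pairs) and at -0.64 to 0.28 between sets and groups (36 pairs). Precision is limited by the number of arrays. The fit was tested on simulated data.

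The members and the 15 gene lists were chosen with earlier results of these data known. Named were all 8 members, Stat5a and Stat5b, up to 4 members per list and comparison with the smallest p, called neighbours and the 5 genes most like Gimap8. The Lat signals, single endothelial and T cell markers, Ptprc, Lifr, Bcl6, Ccnd1 and AI854703 were named after their values were seen. Alternatives were 12 settings and the 12 fits that leave out 1 array each.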

Additional observations from a re-analysis of the deposited data

How the results depend on the processing

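Among the 5 counts of called GIMAP genes and the 5 medians over the family, 114 and 111 values under other settings kept their call or stayed close to the main value, and 6 and 4 moved. Calls were lost and gained, as given next, and none turned into a call of the other sign. Part of the values were bound to stay, since leaving out an array outside the groups compared does not move a median over the family. The count for CMP in the knockouts, 0 in the main fit, was 1 after median centring (Gimap1, with 18.1% of all genes called), 3 without set B (Gimap1, Gimap8 and Gimap9, 25%) and 0 to 1 when single arrays were left out (1 without the control with CMP of set B, 22.4%). All genes called were 18.8% in the main fit. The count for CMP in the controls, 1 in the main fit, was 0 with beta-actin ratio in the fit (14.4% of all genes called), 2 without set B (Gimap8 and Gimap9, 29%) and 0 without set C (5.4%), against 22.1% in the main fit. The median for CMP in the knockouts, 0.02 in the main fit, was -0.22 with the mean of all probe sets of a gene, -0.40 with the beta-actin ratio and -0.39 without set A. It ran from -0.30 to 0.0938 with single arrays left out. The causes were not tested.

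With single arrays left out, Gimap8 ran from -1.86 to -1.18 for knockouts against controls with CMP and from 1.36 to 1.69 for CMP in the controls. Without the set as a replicate block, Gimap8 remained the 1 called member for CMP in the controls, and the genes called numbered 470, against 2344 with it. For CMP in the knockouts they numbered 298, against 1985. Median centring moved the share of called genes that were higher to 27.8% from 47.7% for CMP in the controls and to 37.5% from 48.2% in the knockouts. It moved the median of all genes to -0.22 and -0.13, and that for knockouts against controls with CMP to 0.15. Under it Gimap8 was at 1.31 for CMP in the controls and -1.43 for knockouts against controls with CMP. Low signals limit what Gimap3, Gimap4 and Gimap7, which lay under the level filter, can show.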
